A study of Mus musculus with 30 samples.

Results

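Distal colon was compared with terminal ileum in late-colonized mice, called COL, which were germ-free mice given a specific-pathogen-free (SPF) microbiota in week 5 of life. The members are the 6 libraries labelled as untreated COL tissue at 10 weeks of age, 3 of distal colon and 3 of terminal ileum, out of 30 libraries in the series. All mice were of the inbred strain C3H/HeOuJ. Total RNA of whole tissue was made into 3′ tag libraries, which take reads from the transcript end, and reads were counted per gene. The series is titled for intestinal macrophages, but no cell type was isolated for these libraries. Other groups of 3 libraries of the same strain and age are set beside them, namely distal colon of COL mice given dextran sulfate sodium (DSS) and then water, untreated SPF distal colon, untreated SPF terminal ileum, and terminal ileum of untreated germ-free mice. The labels name no mouse for a library, so p-values measure the spread between libraries of a group, which may be technical. This spread was estimated over the groups of all 30 libraries together.

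The terminal ileum is the last stretch of small intestine. Its villi carry absorptive cells that take back bile acids and vitamin B12, its crypts hold Paneth cells that secrete antimicrobial peptides, and its wall holds lymphoid follicles called Peyer's patches. The distal colon has no villi, absorbs water and sodium, secretes a thick mucus and houses a much denser microbiota. Position along the gut is set early in development by homeobox transcription factors, among them the Hox genes, whose order in each chromosomal cluster follows their order of use along the body axis.

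Markers of each tissue were high in the libraries labelled for it. The colon markers Aqp8, Car1 and Hoxb13 averaged 1220, 1600 and 448 CPM (read counts scaled to the total of assigned reads) in COL colon, against 0.348, 1.43 and 0.696 CPM in COL ileum. The ileal markers Fabp6 and Slc51b averaged 22.9 and 8.38 CPM in COL colon, against 15900 and 333 CPM in COL ileum. Libraries held 5187781 to 6018359 assigned reads in COL colon and 5495811 to 5609819 in COL ileum. Across genes, log2 CPM correlated at 0.965 to 0.972 between libraries of the same tissue and at 0.818 to 0.844 between tissues. Acinar pancreas genes were near 0, with Prss2 at 0, 2.24 and 0 CPM in COL colon and 0.537, 0 and 0 CPM in COL ileum, and the haemoglobin genes Hba-a1 and Hbb-bs were at 0 in all 6 libraries. Of 25 pancreas and liver markers, 5 passed the filter on low counts. The sum of all 25, 5310 to 6890 CPM in COL colon and 3950 to 6180 CPM in COL ileum, was nearly all Zg16, which goblet cells also make.

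Of 13807 genes tested, 1640 were higher in COL colon (11.9%) and 1980 were lower (14.3%) at an adjusted p under 0.05 by the quasi-likelihood test of edgeR, Benjamini-Hochberg adjusted, which gave every adjusted p below. By at least 4-fold, 486 were higher (3.52%) and 679 were lower (4.92%). The 3 COL colon libraries all lay above the 3 COL ileum libraries for 2904 genes (21.0%) and all below them for 3176 genes (23.0%). The median log2 fold change, colon minus ileum, over all genes tested was -0.01. Counts of called members in the gene lists below are to be read beside the shares of 11.9% higher and 14.3% lower. In RNA of whole tissue, fewer cells of a type and less RNA per cell cannot be told apart.

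Promoter sequence gives a view of what genes of absorptive cells look like at their start. The 250 bases before the start given by RefSeq were searched for 11 genes. To display what such matches look like, 5 are shown, 3 of ileal genes (Slc10a2, Sis and Apoa4) and 2 of colonic genes (Slc26a3 and Tgm3). They were picked after the search, because they held matches. Fabp6, Prap1, Apob and Lct held 1 or 2 matches as well, and Aqp8 and Slc51a held 0 in this window. The sequences are from RefSeq on GRCm38.p6, read 5′ to 3′ on the strand of the gene. Capitals mark matches, on either strand, to short motifs of factors known in gut epithelium: CAAAGNNCA for HNF4, AGATAA for GATA factors, CAATAAA for CDX factors, GTTAAT for HNF1, and TATAAA for the TATA box. In Sis, 2 TATA matches overlap and are printed as 1 run. The regions are chr8:5105288-5105537 on the minus strand for Slc10a2, chr3:72967864-72968113 on the minus strand for Sis, chr9:46240594-46240843 on the plus strand for Apoa4, chr12:31437969-31438218 on the plus strand for Slc26a3, and chr2:130012090-130012339 on the plus strand for Tgm3. The Slc26a3 window lies inside the gene as GENCODE vM21 draws it (chromosome 12, 31390871 to 31473917), so it may not be the promoter used in colon. The Slc10a2 and Apoa4 windows lie partly inside their genes as GENCODE draws them (Slc10a2 up to 5105351, Apoa4 from 46240696). For Slc10a2 the neighbouring CDX matches nearest the RefSeq start fall in that part. The HNF4 match of Apoa4 lies before the GENCODE start.
Slc10a2: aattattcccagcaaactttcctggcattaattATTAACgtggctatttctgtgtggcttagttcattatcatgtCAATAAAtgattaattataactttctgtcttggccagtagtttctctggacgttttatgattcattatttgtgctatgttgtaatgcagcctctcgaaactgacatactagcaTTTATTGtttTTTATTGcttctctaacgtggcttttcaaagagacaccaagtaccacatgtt
Sis: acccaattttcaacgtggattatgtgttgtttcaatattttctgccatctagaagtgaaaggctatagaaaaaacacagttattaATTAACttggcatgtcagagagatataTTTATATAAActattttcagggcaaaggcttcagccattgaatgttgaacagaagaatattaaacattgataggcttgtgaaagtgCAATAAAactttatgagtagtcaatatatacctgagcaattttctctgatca
Apoa4: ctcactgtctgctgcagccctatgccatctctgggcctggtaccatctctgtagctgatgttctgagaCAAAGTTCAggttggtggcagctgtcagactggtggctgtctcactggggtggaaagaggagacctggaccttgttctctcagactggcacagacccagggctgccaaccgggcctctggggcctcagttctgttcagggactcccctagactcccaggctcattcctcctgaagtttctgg
Slc26a3: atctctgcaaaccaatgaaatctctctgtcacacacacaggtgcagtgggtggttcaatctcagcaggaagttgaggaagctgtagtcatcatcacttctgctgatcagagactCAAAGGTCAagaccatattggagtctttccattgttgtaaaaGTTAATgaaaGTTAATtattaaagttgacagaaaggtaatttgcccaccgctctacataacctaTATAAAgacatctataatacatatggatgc
Tgm3: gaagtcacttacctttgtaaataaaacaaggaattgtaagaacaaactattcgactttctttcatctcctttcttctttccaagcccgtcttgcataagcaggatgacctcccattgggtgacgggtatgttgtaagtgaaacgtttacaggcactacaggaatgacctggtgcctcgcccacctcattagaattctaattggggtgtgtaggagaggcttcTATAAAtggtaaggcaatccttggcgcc

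Slc10a2, the ileal bile acid importer, had 3 CDX matches and 1 HNF1 match in this window. Sucrase-isomaltase (Sis) had 1 CDX match, 1 HNF1 match and 2 TATA matches. The apolipoprotein gene Apoa4 had 1 HNF4 match. Slc26a3, the chloride and bicarbonate exchanger of colonic surface cells, had 1 HNF4, 2 HNF1 and 1 TATA match, and the transglutaminase gene Tgm3 had 1 TATA match. Among genes with a single RefSeq promoter of this length, the HNF4 motif stood in 5.76% of 295 genes higher in COL colon by at least 4-fold, in 10.9% of 394 genes lower by at least 4-fold, and in 4.86% of 8565 genes tested. The GATA motif stood in 7.12% of the higher genes, 11.7% of the lower genes and 5.91% of all. The CDX motif stood in 5.76%, 3.81% and 2.7% of the same 3 sets, the HNF1 motif in 7.8%, 9.9% and 4.02%, and the TATA box in 15.6%, 15.2% and 7.29%. These shares describe letters in a window and were not tested.

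The 15 most colonic and 15 most ileal genes were ranked among called genes with mean log2 CPM of at least 3 and groups apart. Predicted genes were left out, and some genes below that level had larger log2 fold changes. Of the 15 most colonic genes, 3 (Aqp8, Car1 and Atp12a) belong to the ion and water list, and the others have varied roles. Aqp8, a water channel (chromosome 7, 123462291 to 123468004 in GENCODE vM21 on mm10, protein coding), had 1430, 1230 and 1020 CPM in COL colon, against 0.179, 0.339 and 0.526 CPM in COL ileum. The lowest colon library was far above the highest ileum library, and the log2 fold change was 11.68 ± 0.53 (SE, adjusted p = 1.3e-13). Each SE of a log2 fold change was worked back from the F statistic of the edgeR test. It is approximate, and where a tissue had few reads it can be smaller than the counting error. Car1, a cytosolic carbonic anhydrase, had 1280, 1640 and 1880 CPM in COL colon, against 0.179, 2.88 and 1.23 CPM in COL ileum (10.09 ± 0.91, adjusted p = 1.1e-07). Again the groups did not overlap. Wfdc2, a secreted protein with a WAP domain, had 1550, 921 and 1560 CPM in COL colon, against 1.61, 5.6 and 2.81 CPM in COL ileum (8.64 ± 0.49, adjusted p = 7.4e-14). Adh1, an alcohol dehydrogenase that also oxidizes retinol, had 1530, 1330 and 1380 CPM in COL colon, against 7.17, 11.2 and 6.67 CPM in COL ileum (7.40 ± 0.41, adjusted p = 7.8e-15). The cytochrome P450 Cyp2d34 had 3 reads or fewer in the COL ileum libraries together and was 1420-fold higher in COL colon by its ratio of counts (95% interval 393 to 11700). Also among the 15 most colonic genes were Tgm3, the lactoperoxidase gene Lpo, the proton and potassium pump Atp12a, Cyp2d10, the slow troponin Tnni1, the matrix protein Thbs4 and Nxpe5, with log2 fold changes of 7.22 to 10.26. Leaving out COL ileum replicate 2 gave 11.10 for Car1, 9.23 for Wfdc2, 12.32 for Tgm3 and 9.78 for Lpo, and leaving out COL ileum replicate 3 gave 10.48 for Atp12a, 8.15 for Thbs4 and 8.88 for Nxpe5.

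Ly6g and Sycn stood among the 15 most colonic genes although each is best known from another cell. Ly6g, a surface protein used as a neutrophil marker, had 546, 523 and 525 CPM in COL colon, against 0, 0.678 and 0.351 CPM in COL ileum (10.48 ± 0.73, adjusted p = 8.1e-11). Of the other neutrophil genes, Cd177 was also higher, with 42.4, 42.2 and 50.8 CPM in COL colon, against 17.7, 13.4 and 20 CPM in COL ileum (1.40 ± 0.38, adjusted p = 0.0065). The monocyte and neutrophil list had 3 higher and 2 lower of 16 tested. The lower genes were Ly6c2 (-1.31, adjusted p = 0.003) and Itgam (-1.29, adjusted p = 0.025). The call of Itgam was lost without COL colon replicate 1, COL colon replicate 3 or COL ileum replicate 3. S100a9, Ngp and Retnlg were at 0 in all 6 libraries, and S100a8 was at 0.15, 1.03 and 0 CPM in COL colon and 0, 0.509 and 0.351 CPM in COL ileum. Sycn, syncollin of pancreatic zymogen granules, had 3070, 3240 and 3680 CPM in COL colon, against 1.25, 5.09 and 4.04 CPM in COL ileum (9.89 ± 1.03, adjusted p = 1.7e-07). Cela1, an elastase, had 131, 215 and 161 CPM in COL colon, against 3.94, 6.45 and 5.09 CPM in COL ileum (5.02 ± 0.43). The defining acinar genes Cela3b, Cpa1 and Pnlip reached at most 1.38, 1.21 and 1.72 CPM, all in COL colon replicate 2, and their part in the Sycn level was not tested. The log2 fold change of Ly6g was 11.38 without COL ileum replicate 2.

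**Figure D1:**
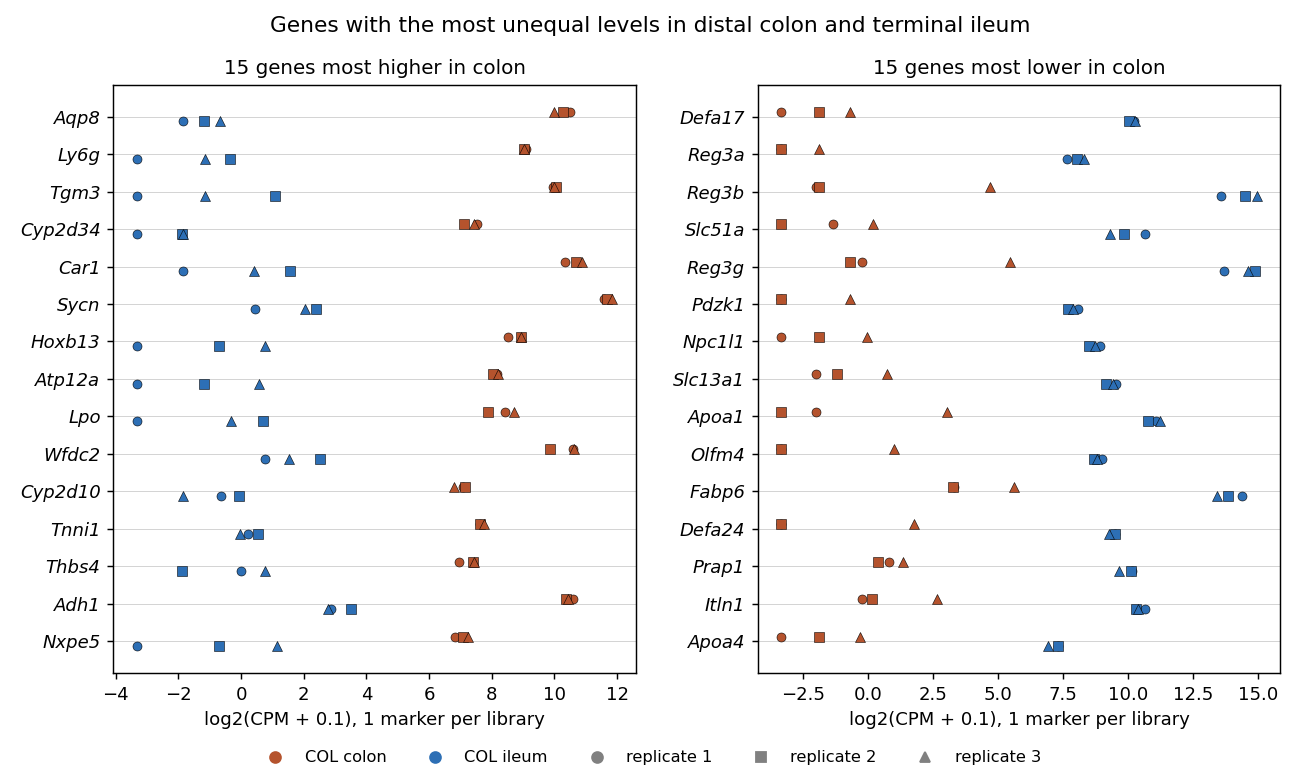
Level of the 15 genes most higher (left) and the 15 most lower (right) in colon, among genes with mean log2 CPM of at least 3. The horizontal axis is log2(CPM + 0.1) with 1 marker per library, COL colon in orange and COL ileum in blue. The groups are apart for all 30 genes, and among the lower genes COL colon replicate 3 (triangles) lies to the right of replicates 1 and 2 for all 15.

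On the ileal side, the most unequal of the 15 ranked genes was Defa17, an alpha-defensin of Paneth cells, with 0, 0.172 and 0.528 CPM in COL colon, against 1220, 1060 and 1230 CPM in COL ileum (-12.23 ± 0.63, adjusted p = 1.3e-13). Cyp3a25, below the mean level set for the ranking, had a fitted value of -12.36. Reg3b, a secreted lectin that acts on bacteria (chromosome 6, 78370657 to 78373466), had 0.15, 0.172 and 25.7 CPM in COL colon, against 12300, 23400 and 31900 CPM in COL ileum (-11.37 ± 1.5, adjusted p = 4.9e-06). Its relative Reg3g had 0.749, 0.517 and 44.7 CPM in COL colon, against 13200, 30600 and 25000 CPM in COL ileum (-10.56 ± 1.37, adjusted p = 4e-06). For both genes COL colon replicate 3 stood far above its group and far below every ileum library. Its level was 0.114% of the COL ileum mean for Reg3b, 0.195% for Reg3g, 0.309% for Fabp6, 0.388% for Apoa1, 0.432% for Itln1 and 0.485% for Defa24, against at most 0.0727% of it for these genes in COL colon replicates 1 and 2. The part of replicate 3 in these low colon levels was measured by leaving it out. Without it, 14 of the 15 most ileal genes differed by over 1.5-fold more, with log2 fold changes of -16.95 to -9.50. Without COL colon replicate 1, 8 of the 15 differed by over 1.5-fold less (-11.62 to -8.33), and all 15 kept their call without any 1 of the 6 libraries. Among the 15 most colonic genes, 5 differed by over 1.5-fold more without COL ileum replicate 2 and 4 without COL ileum replicate 3, and all 15 kept their call.

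Hox genes divided between the tissues by cluster and by place in the cluster. Of 39 Hox genes, 28 passed the filter on low counts, and 11 of these were higher and 10 lower in COL colon, with a median log2 fold change of 0.31. The background shares were 11.9% and 14.3%. In the a and d clusters, 6 and 4 genes were higher and none was lower, while in the c cluster all 4 tested genes were lower. The b cluster held 6 lower genes, Hoxb3 to Hoxb8, and a single higher gene, Hoxb13.

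Hoxb13, the last gene of its cluster (chromosome 11, 96194316 to 96197447), had 370, 484 and 490 CPM in COL colon, against 0, 0.509 and 1.58 CPM in COL ileum (9.28 ± 0.67, adjusted p = 1.4e-08). Hoxd13, which stands last in the d cluster, had 117, 106 and 126 CPM in COL colon, against 0.179, 0 and 0.351 CPM in COL ileum, a 666-fold higher ratio of counts (95% interval 228 to 3230). Every ileum library lay far below every colon library for both genes. Hoxa9 had 68.3, 92.1 and 67.2 CPM in COL colon, against 0.717, 0 and 0.877 CPM in COL ileum (7.11 ± 0.55, adjusted p = 2e-11). Hoxa10 had 22.3, 24.7 and 19.2 CPM in COL colon, against 0, 0.17 and 0.175 CPM in COL ileum, a 190-fold higher ratio (52.2 to 1570). Lower-numbered a genes differed less: Hoxa3, Hoxa5 and Hoxa7 had log2 fold changes of 2.27, 2.72 and 3.74. Hoxd10 and Hoxd11 were higher by ratios of 362 (64.6 to 14300) and 277 (76.2 to 2290). Hoxa11 and Hoxd12 had no read in COL ileum and were at least 24.9-fold and at least 37.2-fold higher, taking 3 reads over the group as the floor. Hoxa11 overlaps an antisense gene, and the strand setting of the counting is not given in the sources used here, so reads of both cannot be told apart. For Hoxb13 the log2 fold change was 10.63 without COL ileum replicate 3.

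Hoxc8 (chromosome 15, 102990607 to 102994111) had 0, 0 and 0.176 CPM in COL colon, against 30.1, 21.7 and 47.9 CPM in COL ileum, a 602-fold lower ratio (108 to 23800). Hoxc6 had 0.45, 0.345 and 0 CPM in COL colon, against 25.3, 21.5 and 28.6 CPM in COL ileum (-6.41 ± 0.56, adjusted p = 3.5e-10). Every ileum library stood above every colon library for both. Among the lower genes of the b cluster the difference was widest at Hoxb8, with 0.15, 0 and 0.176 CPM in COL colon and 5.91, 7.63 and 11.2 CPM in COL ileum, a 75.1-fold lower ratio (20.4 to 626). Hoxb6 followed with 0.899, 3.1 and 0.352 CPM in COL colon, against 27.4, 18.8 and 41.9 CPM in COL ileum (-4.33 ± 0.6, adjusted p = 2.5e-06). Hoxb3, Hoxb4 and Hoxb5 differed by -2.58, -2.21 and -2.36. Hoxb9, between Hoxb8 and Hoxb13 in number, had 29.1, 18.4 and 21.1 CPM in COL colon and 38.7, 20.9 and 27.4 CPM in COL ileum, and these groups overlapped (-0.34 ± 0.36, adjusted p = 0.54). Hoxa13 and Hoxc10, fixed among the genes to be named, did not pass the filter. The value was -7.00 for Hoxc6 without COL colon replicate 1 and -5.47 for Hoxb6 without COL colon replicate 2.

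**Figure D2:**
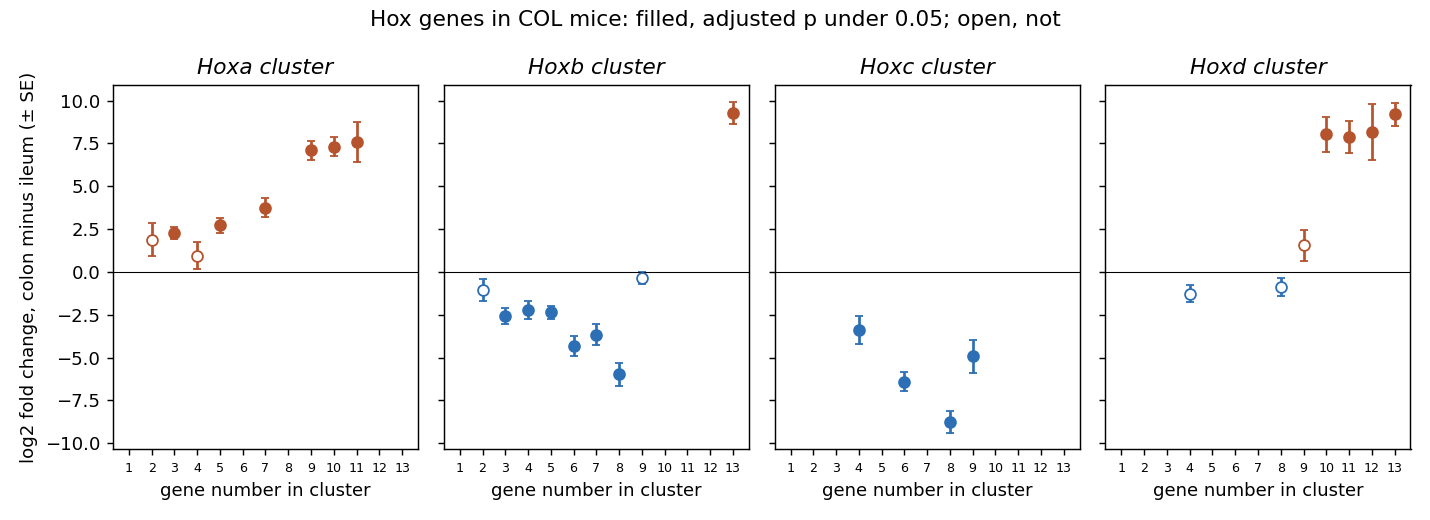
Log2 fold change, colon minus ileum in COL mice (vertical axis, bars show the SE), of the tested Hox genes by gene number within each of the 4 clusters (horizontal axis), filled where the adjusted p was under 0.05. Genes of the a cluster lie above 0, genes of the c cluster below 0, and in the b and d clusters the sign turns from below 0 to above 0 at the high numbers, with the fitted values of Hoxa11 and Hoxd12 resting on no read in ileum.

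Other transcription factors of gut epithelium and mesenchyme divided in both directions, with 7 of 29 tested genes higher and 13 lower in COL colon (median -0.38). Gata5, a factor of the small intestine, had 0.15, 0 and 0 CPM in COL colon, against 17.4, 18.5 and 17.2 CPM in COL ileum, a 321-fold lower ratio (57.3 to 12700). Osr2 had 1.65, 2.59 and 3.52 CPM in COL colon, against 262, 160 and 310 CPM in COL ileum (-6.57 ± 0.4, adjusted p = 5.8e-14). None of these groups overlapped. Isx, a homeobox factor that restrains carotene conversion, fell by 5.64 on the log2 scale, and the nuclear receptor Hnf4g by 2.76. Cdx2, a factor of intestinal identity, had 22.6, 9.83 and 30.1 CPM in COL colon, against 58.6, 68 and 53.4 CPM in COL ileum (-1.52 ± 0.35, adjusted p = 0.0012).

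On the colon side, Foxa2 had 97, 81 and 98.8 CPM in COL colon, against 12.2, 10.5 and 10.9 CPM in COL ileum (3.04 ± 0.27, adjusted p = 1.5e-10). Klf4, a factor of differentiated epithelium, rose by 1.30 (± 0.18) and Foxa3, a goblet cell factor, by 1.07 (± 0.25). Gata4, another fixed name, did not pass the filter.

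Of 41 tested channels, pumps and exchangers for ions and water, 20 were higher in COL colon, 10 were lower and 11 were not called, with a median of 0.64. The list summed to 16800, 16900 and 15700 CPM in COL colon, against 6910, 6050 and 6730 CPM in COL ileum. Slc26a3, whose RefSeq window is printed above, had 1610, 1480 and 1800 CPM in COL colon, against 128, 156 and 152 CPM in COL ileum (3.48 ± 0.23, adjusted p = 1.5e-13). Car2, another carbonic anhydrase, had 983, 881 and 789 CPM in COL colon, against 6.45, 6.11 and 11.9 CPM in COL ileum (6.76 ± 0.37, adjusted p = 4.5e-15). Both genes were read in ileum but at a small share of the colonic level. Atp12a, the colonic proton and potassium pump, had 284, 264 and 292 CPM in COL colon, against 0, 0.339 and 1.4 CPM in COL ileum (8.86 ± 0.64, adjusted p = 8.6e-09). The chloride channel Ano1 had 511, 544 and 457 CPM in COL colon, against 26.2, 19.7 and 17.7 CPM in COL ileum (4.57 ± 0.34, adjusted p = 6.3e-12). Ano1 also marks the pacemaker cells of gut muscle, and Kit, another marker of these cells, had 27.6, 26.7 and 26.6 CPM in COL colon and 14.2, 16.3 and 14 CPM in COL ileum. For Kit the call (adjusted p = 0.016) was lost without COL ileum replicate 1 or replicate 3. Atp12a had 10.48 without COL ileum replicate 3.

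The epithelial sodium channel was colonic in all 3 subunits tested. Scnn1b had 10.3, 12.9 and 12.8 CPM in COL colon, against 0, 0.678 and 0 CPM in COL ileum (5.57 ± 0.82, adjusted p = 1.2e-05). Scnn1a had a log2 fold change of 3.80 ± 0.37, and Scnn1g, with no read in COL ileum, was at least 77.9-fold higher. Hsd11b2, the enzyme that keeps cortisol-like steroids off the mineralocorticoid receptor, had 794, 629 and 684 CPM in COL colon, against 43.2, 56.8 and 56.5 CPM in COL ileum (3.75 ± 0.39, adjusted p = 1.5e-08). The calcium channel Trpv6 had no read in COL ileum and was at least 24-fold higher. Genes of the same list that were lower in COL colon included the chloride channel regulator Clca4b, with 0, 2.76 and 1.76 CPM in COL colon and 311, 519 and 533 CPM in COL ileum (-8.27 ± 0.54, adjusted p = 1.7e-12), the anion exchanger Slc26a6 (-6.19 ± 0.59), the water and glycerol channel Aqp3 (-4.92 ± 0.53) and Car13 (-2 ± 0.25). Single libraries moved some of these log2 values: Scnn1b had 9.07 without COL ileum replicate 2, Slc26a6 had -7.33 without COL colon replicate 1, and Clca4b had -7.63 without COL colon replicate 1 and -9.07 without COL colon replicate 2.

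Bile acid genes were called in the ileal direction alone. Of 12 tested genes, 9 were lower in COL colon and 0 were higher, with a median log2 fold change of -5.23. Setting the genes without a read to their bound gave a median of -4.6. Slc10a2, the importer at the brush border (chromosome 8, 5083219 to 5105351), had 1.95, 6.38 and 7.56 CPM in COL colon, against 244, 264 and 385 CPM in COL ileum (-5.83 ± 0.59, adjusted p = 4e-08). Fabp6, which carries bile acids through the cell, had 9.89, 9.66 and 49.2 CPM in COL colon, against 21700, 14900 and 11200 CPM in COL ileum (-9.44 ± 1.04, adjusted p = 3e-07). The basolateral exporter is a pair of subunits, and both fell. Slc51a had 0.3, 0 and 1.06 CPM in COL colon, against 1620, 933 and 644 CPM in COL ileum (-11.17 ± 0.6, adjusted p = 3.8e-13). Slc51b had 10.5, 5.69 and 8.97 CPM in COL colon, against 319, 369 and 311 CPM in COL ileum (-5.30 ± 0.34, adjusted p = 8.7e-14). Nr1h4, the nuclear bile acid receptor FXR, was read in both tissues at 37.6, 58.3 and 66.3 CPM in COL colon and 172, 188 and 252 CPM in COL ileum (-1.92 ± 0.28, adjusted p = 2.4e-06). Its hormone target Fgf15 had no read in COL colon and 10.6, 5.09 and 0 CPM in COL ileum, at least 31.4-fold lower. The adjusted p of Fgf15 was 0.025, and its call was lost without any 1 of the COL colon libraries or COL ileum replicate 1. COL colon replicate 3 made the differences of Fabp6 and Slc51a smaller, which were -10.71 and -12.56 without it, and the fitted value of Fgf15 was -6.85 without COL ileum replicate 1.

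Fat absorption followed the same direction, with 21 of 27 tested genes lower and 2 higher in COL colon (median -3.40). Npc1l1, the cholesterol importer that ezetimibe blocks, had 0, 0.172 and 0.879 CPM in COL colon, against 485, 362 and 433 CPM in COL ileum (-10.23 ± 0.45, adjusted p = 7.2e-17). Apoa1, the main protein of high-density lipoprotein, had 0.15, 0 and 8.26 CPM in COL colon, against 2190, 1750 and 2450 CPM in COL ileum (-9.61 ± 0.73, adjusted p = 2.7e-10). Apoa4, a chylomicron protein, had 0, 0.172 and 0.703 CPM in COL colon, against 159, 161 and 122 CPM in COL ileum (-8.95 ± 0.43, adjusted p = 7.8e-15). Every colon library lay far below every ileum library for all 3 genes, and the highest colon value of each was in replicate 3. The log2 fold change was -6.78 for Mttp, which loads lipid onto apolipoprotein B, -5.65 for Apob itself, and -3.01 for Dgat1, which completes triglyceride synthesis. Soat2, the cholesterol esterifying enzyme, was lower by a ratio of 694 (124 to 27400). The intracellular fatty acid carrier Fabp2 had 14.5, 16.2 and 21.1 CPM in COL colon, against 2410, 2030 and 4170 CPM in COL ileum (-7.38 ± 0.7, adjusted p = 1.8e-08). The 2 higher genes were the lipid droplet coat Plin2 (0.94 ± 0.23) and the lipoprotein receptor Scarb1 (1.64 ± 0.51), and the call of Scarb1 was lost without COL ileum replicate 1. Without COL colon replicate 3 the log2 fold changes were -12.06 for Npc1l1, -14.38 for Apoa1, -10.53 for Apoa4 and -7.45 for Mttp, and without COL colon replicate 1 they were -9.61 for Npc1l1, -9.01 for Apoa1 and -8.33 for Apoa4.

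Digestive enzymes of the brush border were lower in COL colon for 16 of 23 tested genes and higher for 1 (median -4.23). Sucrase-isomaltase (Sis) had 0, 0 and 1.76 CPM in COL colon, against 231, 196 and 295 CPM in COL ileum (-8.70 ± 0.63, adjusted p = 4.9e-10). The peptidases Enpep (-8.05 ± 0.3), Anpep (-8 ± 0.39) and Mme (-6.29 ± 0.31) were lower as well. Slc6a19, a transporter of neutral amino acids, had 0, 0 and 0.352 CPM in COL colon, against 47.5, 45.3 and 62.1 CPM in COL ileum, lower by a ratio of 468 (129 to 3870). The exception was Nt5e, an ectonucleotidase that makes adenosine, with 56.9, 75.9 and 43.3 CPM in COL colon, against 14.3, 7.12 and 16.3 CPM in COL ileum (2.22 ± 0.38, adjusted p = 4.3e-05). Lactase (Lct) was at 0.179 CPM or less in all 6 libraries. Sis had -13.42 without COL colon replicate 3, in which all its colon reads lay, and -8.07 without COL colon replicate 1.

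Sugar, amino acid and nucleoside transporters were lower for 18 of 27 tested genes and higher for 5 (median -1.55). Slc7a9, a light chain of cystine transport, had 6.74, 4.83 and 6.15 CPM in COL colon, against 430, 370 and 367 CPM in COL ileum (-6.03 ± 0.36, adjusted p = 1.8e-14). Slc5a1, the sodium-glucose cotransporter, was abundant in both tissues, with 192, 378 and 221 CPM in COL colon and 1350, 1130 and 1110 CPM in COL ileum (-2.18 ± 0.25, adjusted p = 3.4e-08). The peptide transporter Slc15a1, often used as a small intestinal gene, had 213, 218 and 183 CPM in COL colon and 203, 179 and 218 CPM in COL ileum, and the groups overlapped (0.03 ± 0.24, adjusted p = 0.94). Going the other way, Slc37a2, a sugar-phosphate exchanger, had 200, 122 and 159 CPM in COL colon, against 0.537, 3.39 and 0.351 CPM in COL ileum (6.77 ± 0.84, adjusted p = 1.8e-06). The glucose transporter Slc2a1 had 72.2, 104 and 76.3 CPM in COL colon, against 8.06, 9.5 and 11.9 CPM in COL ileum (3.09 ± 0.3, adjusted p = 7.7e-10). Slc36a1 (2.20 ± 0.29) and Slc1a5 (0.99 ± 0.27), both amino acid transporters, were higher too. Slc37a2 had 8.43 without COL ileum replicate 2.

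Vitamin and retinoid genes were lower for 15 of 30 tested and higher for 3 (median -0.92). Cubn, the receptor for vitamin B12 bound to intrinsic factor, had 0, 0.517 and 0.352 CPM in COL colon, against 108, 75 and 91.6 CPM in COL ileum (-8.26 ± 0.54, adjusted p = 4.9e-13). Rdh7, a retinol dehydrogenase, had no read in COL colon and was at least 239-fold lower. The 3 higher genes were Adh1, the folate transporter Slc46a1 (1.82 ± 0.34) and the vitamin C transporter Slc23a2 (1.07 ± 0.31). Cubn had -7.64 without COL colon replicate 1 and -8.95 without COL colon replicate 2.

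Genes for the use of short-chain fatty acids and ketone bodies gave 6 higher and 5 lower among 23 tested (median 0.03), and 3 were lower without COL colon replicate 2. Slc16a1, a carrier of butyrate and lactate, had 159, 140 and 89.3 CPM in COL colon, against 19.7, 27.6 and 26.9 CPM in COL ileum (2.39 ± 0.25, adjusted p = 5.2e-09). Acss2, which activates acetate, and Acsm3, an acyl-CoA synthetase, rose by 2.42 (± 0.31) and 3.04 (± 0.38). Slc5a8, a sodium-coupled butyrate transporter, had 228, 178 and 218 CPM in COL colon and 186, 194 and 229 CPM in COL ileum, and was not called (0.03 ± 0.28, adjusted p = 0.95). Its relative Slc5a12 was ileal, with 0, 0 and 0.176 CPM in COL colon and 68.4, 52.6 and 70.7 CPM in COL ileum, lower by a ratio of 1160 (207 to 45800).

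Enzymes that handle foreign compounds divided by family member, with 13 of 46 tested genes higher and 19 lower (median 0.14). Sult1a1, a sulfotransferase, had 72.7, 87.1 and 76.8 CPM in COL colon, against 0.717, 1.19 and 2.98 CPM in COL ileum (5.58 ± 0.63, adjusted p = 1.7e-07). Cyp2c68 rose by 3.44 (± 0.55) and the glutathione transferase Gstm1 by 2.97 (± 0.53). Cyp3a25 had no read in COL colon, against 75.1, 87.3 and 191 CPM in COL ileum, and was at least 713-fold lower. Ugt2b5, a glucuronosyltransferase, was lower by a ratio of 261 (46.4 to 10400), and the carboxylesterase Ces2e fell by 2.65 (± 0.22). Members of the Cyp2c, Cyp2d, Cyp3a and Ugt2b families are near copies of each other, and reads that aligned to several places, 28 to 31.7% per library, were not counted, so the level of a single member is uncertain. Sult1a1 had 6.33 without COL ileum replicate 3.

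Purine and pyrimidine genes were lower in COL colon for 7 of 14 tested and higher for 3 (median -1.06). Ada, adenosine deaminase, had 6.29, 4.14 and 4.04 CPM in COL colon, against 512, 276 and 391 CPM in COL ileum (-6.33 ± 0.47, adjusted p = 2.5e-11). Pnp, Gda and Xdh, the next enzymes toward uric acid, fell by 3.14, 2.44 and 2.61 on the log2 scale. Upp1, which splits uridine, fell by 3.68. Uox, which breaks uric acid down, had 2.4, 2.07 and 1.76 CPM in COL colon and no read in COL ileum, at least 12-fold higher. Among metal genes, 6 of 22 were higher and 6 lower, and 3 were higher without COL colon replicate 3, COL ileum replicate 1 or COL ileum replicate 2. The iron exporter Slc40a1 (ferroportin) had 418, 434 and 373 CPM in COL colon, against 24.9, 62.2 and 39.8 CPM in COL ileum (3.27 ± 0.5, adjusted p = 2e-05), and the ferritin chain Fth1 rose by 0.83 (± 0.19). The zinc exporter Slc30a2, found in Paneth cells, was lower by a ratio of 272 (92.8 to 1320).

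**Figure D3:**
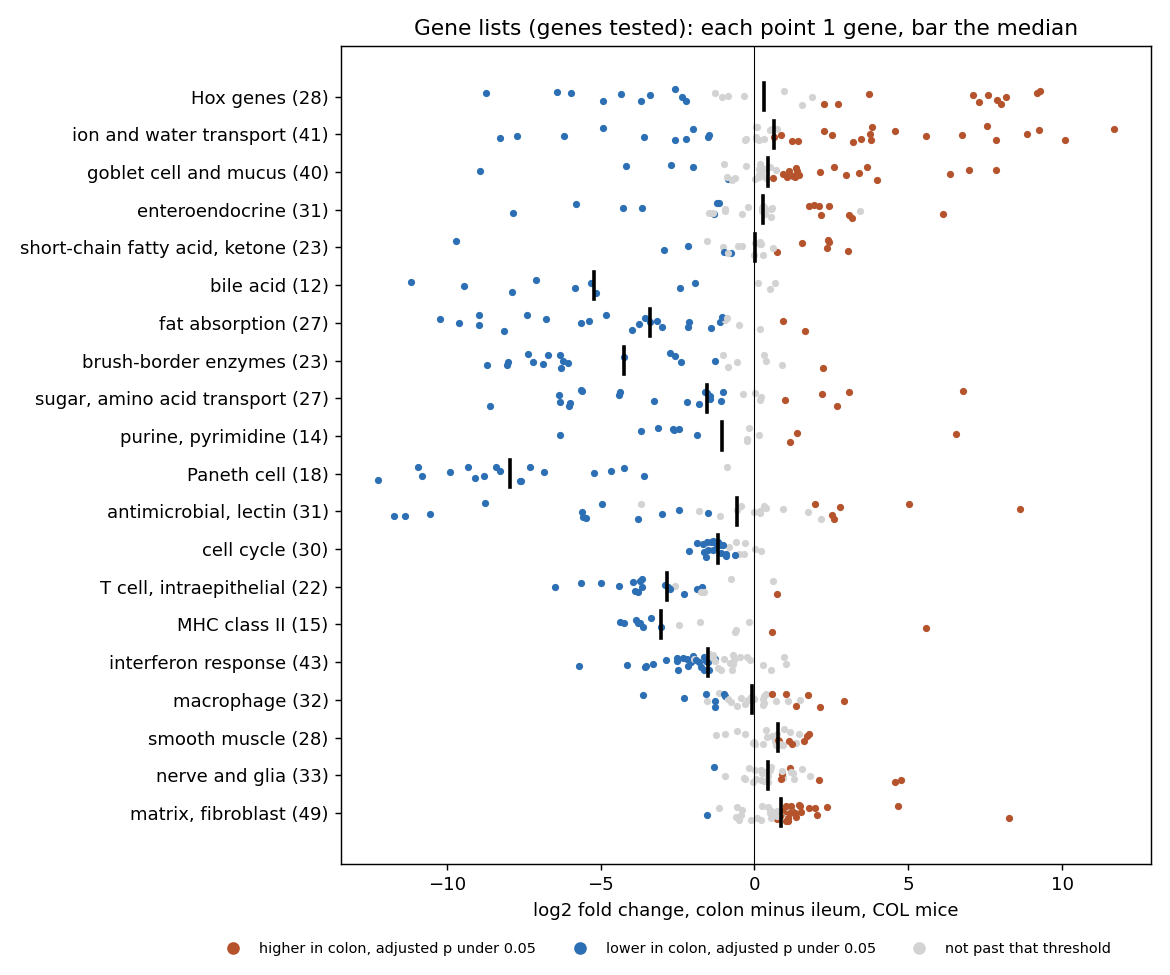
Log2 fold change, colon minus ileum in COL mice (horizontal axis), of every tested gene in 20 gene lists (rows, with the number tested), orange where higher and blue where lower in colon at an adjusted p under 0.05, grey otherwise, with a black bar at each median. The Paneth, bile acid and brush-border rows lie mostly left of 0, the matrix row mostly right of it, and the Hox and ion transport rows reach far to both sides.

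Paneth cell genes were lower for 17 of 18 tested and higher for 0, with a median of -7.95 (-7.15 with genes without a read at their bound). Beside Defa17, Defa24 had 0, 0 and 3.34 CPM in COL colon, against 721, 725 and 621 CPM in COL ileum (-9.31 ± 0.69, adjusted p = 1.5e-09). Lyz1, the Paneth cell lysozyme, had 7.34, 6.72 and 4.4 CPM in COL colon, against 806, 1010 and 1120 CPM in COL ileum (-7.30 ± 0.46, adjusted p = 5e-13). Itln1, a lectin that binds microbial sugars, had 0.749, 1.03 and 6.15 CPM in COL colon, against 1640, 1290 and 1330 CPM in COL ileum (-9.09 ± 0.55, adjusted p = 4.7e-13). Every ileum library was far above every colon library for these genes. Alpha-defensin genes are near copies, so reads can be divided among members or lost, and 9 members of the list were not in the files or did not pass the filter. Without COL colon replicate 3 the log2 fold changes were -13.52 for Defa17, -14.95 for Defa24 and -10.66 for Itln1, and without COL colon replicate 1 they were -11.62 for Defa17 and -8.68 for Defa24.

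Antimicrobial proteins and lectins outside the Paneth list gave 6 higher and 12 lower of 31 tested (median -0.58), and 8 were lower without COL colon replicate 1 or without replicate 2. Nos2, the inducible nitric oxide synthase, had 4.2, 2.07 and 10.6 CPM in COL colon, against 200, 350 and 264 CPM in COL ileum (-5.60 ± 0.7, adjusted p = 1.8e-06). Reg3a was lower by a ratio of 4760 (855 to 188000), and the galectin Lgals2 fell by 8.77 (± 0.5). Other members were higher in colon. Lypd8, a secreted protein that keeps flagellated bacteria off the colonic surface, had 11200, 14600 and 13600 CPM in COL colon, against 2400, 2070 and 2130 CPM in COL ileum (2.58 ± 0.31, adjusted p = 8.5e-08). Slpi, a protease inhibitor, had 667, 613 and 809 CPM in COL colon, against 22.8, 10 and 31.2 CPM in COL ileum (5.03 ± 0.59, adjusted p = 5.5e-07). Sprr2a3 rose by 2.79 (± 0.37), with near copies in the same family. Retnlb, a goblet cell protein induced by bacteria, had 515, 650 and 1030 CPM in COL colon and 378, 672 and 924 CPM in COL ileum and was not called (0.16 ± 0.57, adjusted p = 0.88). Nos2 had -6.45 and Lgals2 -10.61 without COL colon replicate 3.

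Goblet cell and mucus genes were higher for 18 of 40 tested and lower for 5 (median 0.44), with 3 lower without COL colon replicate 2. The main mucin Muc2 had 3160, 2850 and 3930 CPM in COL colon and 4070, 3520 and 4360 CPM in COL ileum, and the groups overlapped (-0.26 ± 0.4, adjusted p = 0.68). Zg16, a mucus lectin, had 6710, 6150 and 5100 CPM in COL colon and 5860, 3940 and 6170 CPM in COL ileum, and was not called either. Enzymes of this list that build sugar chains, not all of them on mucins, were called in both directions. The sialyltransferases St6galnac6 and St3gal6 rose, St6galnac6 to 261, 180 and 187 CPM in COL colon, against 1.79, 1.53 and 1.58 CPM in COL ileum (6.99 ± 0.47, adjusted p = 1.8e-12), and St3gal6 by 3.67 (± 0.28). Sval1 had 426, 484 and 457 CPM in COL colon, against 2.51, 5.09 and 8.95 CPM in COL ileum (6.36 ± 0.66, adjusted p = 9.1e-08). B4galnt2, which adds a terminal N-acetylgalactosamine, went the other way with 0.899, 1.03 and 1.93 CPM in COL colon, against 700, 536 and 656 CPM in COL ileum (-8.93 ± 0.41, adjusted p = 4.8e-17), and B4galnt1 fell by 4.17 (± 0.29). Clca1, a mucus-processing protein, had 2240, 2630 and 2120 CPM in COL colon and 1060, 1080 and 1070 CPM in COL ileum (1.12 ± 0.41, adjusted p = 0.047), and its call was lost without any 1 of the 6 libraries.

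The enteroendocrine list, made up of hormones, granule proteins, enzymes and transcription factors, had 8 of 31 tested higher and 7 lower (median 0.28). Insl5, a hormone of colonic L cells, had 250, 241 and 314 CPM in COL colon, against 4.3, 3.56 and 3.69 CPM in COL ileum (6.12 ± 0.43, adjusted p = 3.5e-12). Pyy, peptide YY, had 546, 543 and 641 CPM in COL colon, against 179, 127 and 204 CPM in COL ileum (1.76 ± 0.25, adjusted p = 1.4e-06). Tph1, the serotonin-producing enzyme of enterochromaffin cells, rose by 3.08 (± 0.54) and the granule protein Chgb by 2.43 (± 0.29). Nts, neurotensin, had 0.599, 0.172 and 1.93 CPM in COL colon, against 229, 135 and 264 CPM in COL ileum (-7.85 ± 0.44, adjusted p = 1.1e-14). Cck, Gip and Sct, hormones of the small intestine, had log2 fold changes of -5.80, -4.28 and -3.66. Gcg, the proglucagon gene, had 23.7, 19.8 and 25 CPM in COL colon and 40.1, 68.5 and 48.6 CPM in COL ileum (-1.20 ± 0.31, adjusted p = 0.0039). Nts had -8.99 without COL colon replicate 3, and Gip had -5.06 without COL colon replicate 1.

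Genes of crypt stem cells were called in both directions, with 4 of 24 higher and 5 lower (median 0.06), beside 11.9% and 14.3% of all genes tested. Without COL colon replicate 1, COL colon replicate 2 or COL ileum replicate 1, 3 were lower. Olfm4 had 0, 0 and 1.93 CPM in COL colon, against 520, 414 and 446 CPM in COL ileum (-9.50 ± 0.57, adjusted p = 4.5e-12). Lgr5, another gene of this list, had 2.25, 3.97 and 6.33 CPM in COL colon, against 15.6, 15.4 and 13.3 CPM in COL ileum (-1.83 ± 0.42, adjusted p = 0.0013), and the Wnt target Axin2 fell by 2.03 (± 0.32). The crypt factor Sox9 went up, with 480, 417 and 591 CPM in COL colon, against 195, 158 and 164 CPM in COL ileum (1.52 ± 0.25, adjusted p = 2e-05). Cell cycle genes were lower for 23 of 30 and higher for 0, with a median of -1.18. Top2a, a topoisomerase of dividing cells, had 58, 66.7 and 85.3 CPM in COL colon, against 171, 261 and 228 CPM in COL ileum (-1.65 ± 0.23, adjusted p = 1.3e-06). Plk1 and Cdc20, which run mitosis, fell by 1.88 and 2.11. The list summed to 673, 918 and 1160 CPM in COL colon, against 1630, 1980 and 1860 CPM in COL ileum, and 17 genes were lower without COL colon replicate 1. Without COL colon replicate 3, Olfm4 had -14.36 and Cdc20 -2.72, and without COL colon replicate 1 Olfm4 had -8.87.

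General epithelial genes gave 3 higher and 12 lower of 33, and Epcam, carried by all epithelial cells, had 2280, 2130 and 1590 CPM in COL colon and 2960, 2130 and 2180 CPM in COL ileum (-0.28 ± 0.26, adjusted p = 0.47). Vil1, villin of the microvillus core, had 297, 267 and 252 CPM in COL colon, against 1370, 969 and 1000 CPM in COL ileum (-2.03 ± 0.23, adjusted p = 1.6e-08). The tight junction genes Cldn8 and Cldn15 went opposite ways. Cldn8 had 97, 142 and 130 CPM in COL colon, against 4.48, 4.58 and 7.2 CPM in COL ileum (4.50 ± 0.34, adjusted p = 4.5e-12). Cldn15, a cation pore, had 27, 19 and 27.1 CPM in COL colon, against 470, 288 and 304 CPM in COL ileum (-3.86 ± 0.41, adjusted p = 3.4e-08).

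Lymphocyte genes were largely ileal. T cell and intraepithelial lymphocyte genes were lower for 17 of 22 tested and higher for 1 (median -2.84). Their sum was 89.8, 87.9 and 55.7 CPM in COL colon, against 239, 236 and 264 CPM in COL ileum. Gzma, a granzyme of cytotoxic lymphocytes, had 0.15, 0.69 and 1.23 CPM in COL colon, against 72.2, 45.5 and 64.9 CPM in COL ileum (-6.47 ± 0.92, adjusted p = 1.1e-05). Cd3e, part of the T cell receptor complex, had 0.45, 0.517 and 0 CPM in COL colon, against 5.91, 7.46 and 8.77 CPM in COL ileum (-4.40 ± 0.98, adjusted p = 0.00099). The small intestinal homing pair was ileal in both parts. Ccl25, the chemokine made by small intestinal epithelium, had 3.6, 3.62 and 3.87 CPM in COL colon, against 442, 243 and 410 CPM in COL ileum (-6.62 ± 0.38, adjusted p = 1.1e-14), and its receptor Ccr9 fell by 2.89 (± 0.61). Ccl28, a mucosal chemokine of epithelium, had 41.4, 62.1 and 48.2 CPM in COL colon and 35.6, 45.3 and 44.6 CPM in COL ileum and was not called (0.27 ± 0.24, adjusted p = 0.46). Gzma had -7.20 without COL colon replicate 3, and Ccr9 had -3.91 without COL colon replicate 1.

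B-cell follicle genes showed large but uneven differences. Only 3 of 26 were called, all lower, beside 14.3% of all genes tested, while the median was -2.39. Of the list, 0 were called without COL colon replicate 2, COL colon replicate 3 or COL ileum replicate 2, and 1 without COL colon replicate 1. The sum was 273, 160 and 129 CPM in COL colon, against 398, 1080 and 546 CPM in COL ileum, with COL ileum replicate 2 highest. Ms4a1, the B cell antigen CD20, had 13.9, 4.14 and 0.528 CPM in COL colon and 36.4, 92.6 and 31.4 CPM in COL ileum (-3.08 ± 1.54, adjusted p = 0.15). With only the 6 libraries in the fit, 20 of these genes were called lower. Plasma cell genes were lower for 12 of 17 and higher for 1 (median -0.97). Jchain, the joining chain of secreted IgA, had 304, 152 and 314 CPM in COL colon, against 1160, 883 and 1300 CPM in COL ileum (-2.12 ± 0.46, adjusted p = 0.0012), and Irf4 fell by 3.03 (± 0.59). Without COL colon replicate 2, which had the lowest Jchain, 7 plasma cell genes were lower.

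More antigen presentation and interferon genes were lower than higher in COL colon. Of 15 genes of MHC class II presentation, 8 were lower and 2 higher (median -3.04), and the list summed to 1370, 1280 and 1240 CPM in COL colon, against 5700, 5100 and 6370 CPM in COL ileum. H2-Aa, an MHC class II alpha chain (chromosome 17, 34282744 to 34287823), had 115, 82.6 and 97.9 CPM in COL colon, against 1980, 1740 and 1870 CPM in COL ileum (-4.24 ± 0.57, adjusted p = 3.6e-06). Its invariant chain Cd74 had 50.5, 19.3 and 19.2 CPM in COL colon, against 402, 396 and 378 CPM in COL ileum (-3.72 ± 0.4, adjusted p = 4.8e-08). The 2 higher genes were the proteases Ctse (5.58 ± 0.74) and Ctss (0.58 ± 0.21), and the call of Ctss was lost without any 1 library other than COL ileum replicate 3. Interferon response genes were lower for 23 of 43 and higher for 1 (median -1.52). B2m, the MHC class I light chain, had 736, 647 and 701 CPM in COL colon, against 2790, 2880 and 3830 CPM in COL ileum (-2.19 ± 0.28, adjusted p = 2.3e-07). Psmb9 and Psmb8, of the immunoproteasome, had log2 fold changes of -2.33 and -1.79, and the peptide transporter Tap1 had -2.48. MHC genes are polymorphic and alike in sequence, which makes single members uncertain. Cd74 had -4.35 without COL colon replicate 1, and Ctse had 6.34 without COL ileum replicate 1.

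Genes of macrophages, the cells named in the title of the series, were called in both directions: 6 of 32 were higher and 7 lower, beside 11.9% and 14.3% of all genes tested. The median was -0.09, and the sums were 2590, 2320 and 2260 CPM in COL colon and 2280, 2230 and 2250 CPM in COL ileum. These sums include Gas6 and Maf, given below, which went opposite ways. Csf1r, the receptor that macrophages need to survive, had 19.6, 12.4 and 19.9 CPM in COL colon and 12.5, 24.8 and 22.5 CPM in COL ileum (-0.20 ± 0.34, adjusted p = 0.71). Adgre1 (F4/80) had 5.99, 3.1 and 5.8 CPM in COL colon and 4.12, 5.09 and 2.81 CPM in COL ileum, and Cx3cr1 had 12.4, 8.79 and 13.2 CPM in COL colon and 16.1, 14.9 and 16 CPM in COL ileum. Neither was called. Mrc1 and Lyve1, receptors of tissue-resident macrophages near vessels, were higher, Mrc1 with 37, 43.3 and 33.9 CPM in COL colon and 21.9, 16.1 and 18.1 CPM in COL ileum (1.03 ± 0.28, adjusted p = 0.0063), and Lyve1 by 1.34 (± 0.28). Lyve1 also marks lymphatic endothelium, for which Prox1 had 3.3, 1.03 and 2.11 CPM in COL colon and 1.25, 1.7 and 0.702 CPM in COL ileum. Gas6, a ligand of the Mer receptor, had 829, 576 and 657 CPM in COL colon, against 276, 175 and 162 CPM in COL ileum (1.75 ± 0.28, adjusted p = 9e-06), while the receptor Mertk had 76.6, 90.9 and 57.7 CPM in COL colon, against 181, 147 and 122 CPM in COL ileum (-1 ± 0.26, adjusted p = 0.0037). The largest fall of the list was Maf, at 33, 27.8 and 25.8 CPM in COL colon, against 454, 321 and 301 CPM in COL ileum (-3.63 ± 0.21, adjusted p = 7.5e-15), a transcription factor that other cells of the gut also express. Itgax (-1.56, adjusted p = 0.00096) and Aif1 (-1.29, adjusted p = 0.0086) were lower too. The call of Aif1 was lost without COL colon replicate 3 or COL ileum replicate 2. Cd163 (1.47 ± 0.68, adjusted p = 0.11) and the monocyte receptor Ccr2 (-0.14 ± 0.55, adjusted p = 0.88) were not called.

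Mast cell proteases went by type. The connective tissue type tryptases Tpsab1 and Tpsb2 were higher in COL colon by ratios of 110 (19.3 to 4370) and 38.1 (12.7 to 188), and the chymase Cma1 rose by 3.63 (± 0.8). The mucosal type protease Mcpt1 had 2.55, 1.38 and 3.17 CPM in COL colon, against 13.3, 24.8 and 8.77 CPM in COL ileum (-2.71 ± 0.71, adjusted p = 0.0049). Single libraries moved the fitted log2 values, to 8.16 for Tpsab1 without COL ileum replicate 1, to 4.39 for Tpsb2 without COL colon replicate 1 and 8.17 without COL ileum replicate 2, and to 4.94 for Cma1 without COL ileum replicate 3.

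Genes of the wall beneath the epithelium leaned to colon. Extracellular matrix and fibroblast genes were higher for 26 of 49 and lower for 1 (median 0.88), and 19 to 25 were higher when 1 library was left out. Col3a1, a fibrillar collagen, had 486, 435 and 456 CPM in COL colon, against 180, 176 and 128 CPM in COL ileum (1.51 ± 0.22, adjusted p = 2.4e-06). Bmp2, a differentiation signal, had 358, 350 and 372 CPM in COL colon, against 118, 101 and 94.2 CPM in COL ileum (1.79 ± 0.28, adjusted p = 7.6e-06). Fn1, fibronectin, rose by 2.05 (± 0.31) and Timp3, an inhibitor of matrix proteases, by 1.49 (± 0.22). The smooth muscle list summed to 10600, 11700 and 10500 CPM in COL colon, against 7130, 6050 and 6530 CPM in COL ileum, without overlap. Only 7 of its 28 genes were called, all higher (median 0.76), and 2 to 4 were higher when any 1 library was left out. Myh11, smooth muscle myosin, had 504, 661 and 565 CPM in COL colon and 260, 296 and 356 CPM in COL ileum (0.93 ± 0.6, adjusted p = 0.28), and Actg2 had 672, 680 and 627 CPM in COL colon and 274, 331 and 280 CPM in COL ileum (1.16 ± 0.71, adjusted p = 0.25). With only the 6 libraries in the fit, 16 muscle genes were called higher. Nerve and glia genes were higher for 6 of 33 and lower for 1 (median 0.44), beside 11.9% and 14.3% of all genes tested. Without COL colon replicate 3, COL ileum replicate 1 or COL ileum replicate 3, 3 were higher. The list summed to 942, 924 and 912 CPM in COL colon, against 383, 432 and 443 CPM in COL ileum, of which Ano1 alone was 511, 544 and 457 CPM in COL colon and 26.2, 19.7 and 17.7 CPM in COL ileum.

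Fat tissue genes moved with single libraries. The adipose list summed to 492, 669 and 393 CPM in COL colon and 393, 679 and 1290 CPM in COL ileum, with COL ileum replicate 3 highest. Of 14 genes, 1 was higher and 1 lower, with a median of -2.44. The higher gene, Pck1, made up most of the sum in COL colon. With only the 6 libraries in the fit, 1 was higher and 6 lower, and the same held with only the 12 untreated 10-week libraries. Adipoq, made by fat cells, had 3.15, 6.21 and 0 CPM in COL colon and 18.5, 45.1 and 56.3 CPM in COL ileum and was not called (adjusted p = 0.14). Cidec, a lipid droplet protein, had 3.9, 3.28 and 0.528 CPM in COL colon, against 51.6, 73.3 and 73.4 CPM in COL ileum (-4.65 ± 0.6, adjusted p = 1.7e-06). The part of fat tissue in the lipid genes described above was not tested. The gluconeogenic enzyme Pck1 had 314, 439 and 308 CPM in COL colon, against 44.6, 36.5 and 103 CPM in COL ileum (2.53 ± 0.47, adjusted p = 0.00024). Pck1 had 3.13 without COL ileum replicate 3.

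**Figure D4:**
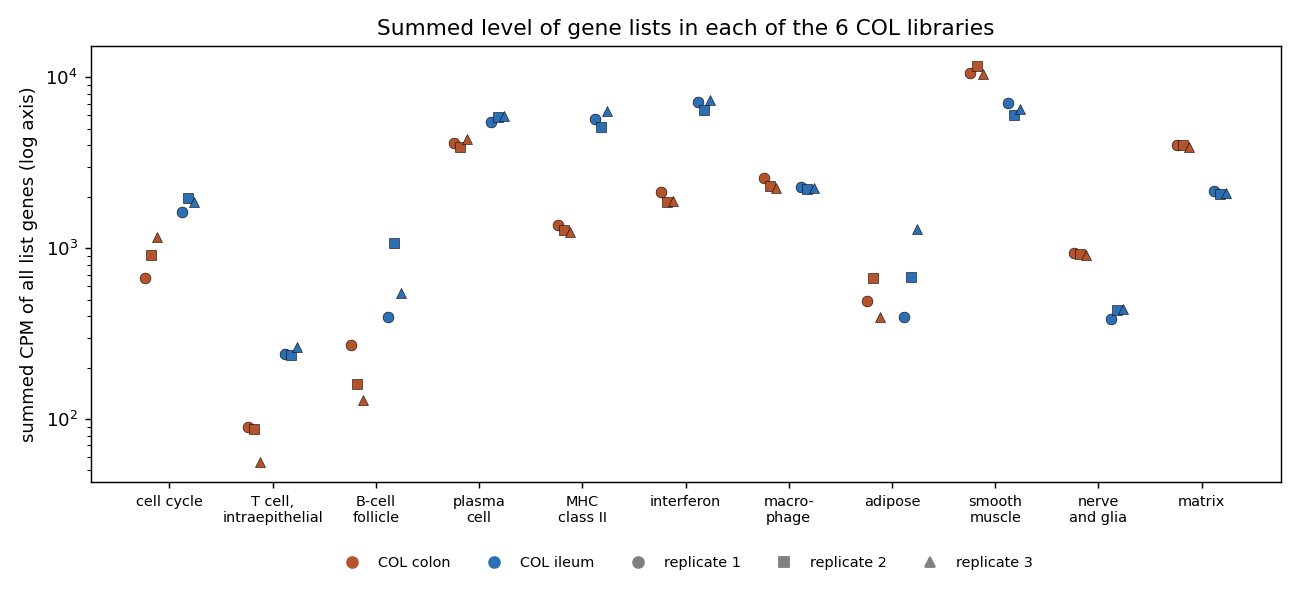
Summed CPM of all genes of 11 lists in each of the 6 libraries (vertical axis, logarithmic), COL colon in orange left of COL ileum in blue, with 1 marker shape per replicate number. The MHC class II, interferon, T cell and cell cycle sums are lower in every COL colon library, the smooth muscle, nerve and matrix sums are higher, and the macrophage sums nearly coincide. The nerve sums include Ano1, which is a large part of them in COL colon and a small part in COL ileum.

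The same comparison in SPF mice, which carry their microbiota from birth, bears on whether the division between the tissues depends on when the microbiota arrived. In SPF mice 2108 genes were higher in colon (15.3%) and 2376 lower (17.2%). Of the COL calls, 1238 higher genes and 1547 lower genes were called the same way in SPF, which is 75.5% and 78.1% of the COL lists and 58.7% and 65.1% of the SPF lists, and 0 were called the opposite way. Of the COL genes past 4-fold, 443 of 486 higher and 609 of 679 lower were called the same way in SPF. Across genes the log2 fold changes of COL and SPF correlated at 0.90. The test of the difference between both contrasts called 0 of 13807 genes with edgeR and 0 with DESeq2, while 914 genes had an unadjusted p under 0.05, where 690 is 5% of the genes tested. The smallest p was at Erich4, with a difference of 2.66 ± 0.53 between the COL contrast (-5.10 ± 0.3) and the SPF contrast (-7.76 ± 0.39, adjusted p of the difference 0.28). Saa1, an acute-phase protein of epithelium, was not called in COL (0.93 ± 0.59, adjusted p = 0.27) and was higher in SPF colon (3.06 ± 0.63, adjusted p = 0.00068), and the difference of -2.13 ± 0.83 was not called (adjusted p = 0.67). The smooth muscle list had 7 higher genes in COL and 20 in SPF with medians of 0.76 and 1.55, and the test of the difference called none of its genes.

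**Figure D5:**
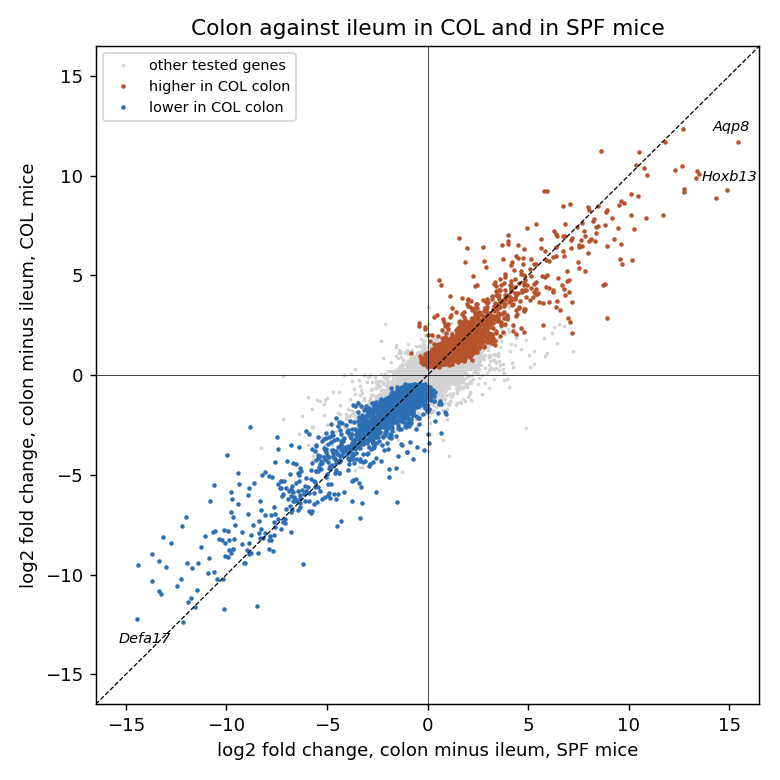
Log2 fold change, colon minus ileum, of each tested gene in COL mice (vertical axis) and in SPF mice (horizontal axis), orange and blue where the gene was called higher or lower in COL colon, with the line of equal values dashed. The points follow the line at r = 0.90, and the outermost values, among them Aqp8, Hoxb13 and Defa17, depend on the fit because few or no reads were found in 1 tissue.

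Levels in the other groups of the same age are given side by side, without a test. Reg3b averaged 16.1 ± 13.1 CPM in COL colon after DSS (SD, n = 3 in each group here), 8.66 ± 14.7 in COL colon and 3.85 ± 4.62 in SPF colon, and it averaged 22500 ± 9860 in COL ileum, 16000 ± 7590 in SPF ileum and 2890 ± 466 in germ-free ileum. Colon libraries of all 3 kinds lay far below ileum libraries of all 3 kinds. H2-Aa averaged 98.4 ± 16 CPM in COL colon and 1860 ± 118 in COL ileum, and germ-free ileum stood at 100 ± 52.4, at the level of colon. Nos2 averaged 5.6 ± 4.41 CPM in COL colon and 271 ± 75.7 in COL ileum, and germ-free ileum stood at 3.59 ± 0.786. For H2-Aa and Nos2, germ-free ileum was thus near colon, and for the following pair it was near COL ileum. Hoxc8 averaged 0.0586 ± 0.102 CPM in COL colon, 33.2 ± 13.4 in COL ileum and 37.6 ± 11.8 in germ-free ileum. Fabp6 averaged 22.9 ± 22.8 CPM in COL colon, 15900 ± 5310 in COL ileum and 24900 ± 9720 in germ-free ileum. In COL colon after DSS, Aqp8 averaged 471 ± 218 CPM and Hoxb13 443 ± 74.3 CPM, beside 1220 ± 205 and 448 ± 67.8 CPM in untreated COL colon. Aqp8 was thus lower after DSS and Hoxb13 nearly level, and these values were not tested against each other.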

How the data were processed

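Reads per gene symbol were deposited as raw counts for each library. Per the labels' protocols, RNA was made into QuantSeq 3′ libraries for Ion Torrent, and the submitters' processing notes name Trimmomatic 0.36, FastQC 0.11.5, STAR 2.5.3a, HTSeq and the build mm10. The annotation and strand setting are not given in the sources used here. The 5 summary lines per library were left out, and reads that aligned to several places (28 to 31.7% per library) were not in the counts.

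Counts of all 30 libraries were fitted with edgeR 4.0.16 in R 4.3.3 (TMM normalization, filterByExpr, robust quasi-likelihood test, 1 mean per group, two-sided). Contrasts were colon minus ileum in COL, the same in SPF, and their difference, with Benjamini-Hochberg adjustment over 13807 genes. Values are CPM, scaled to the reads in tested genes multiplied by the TMM factor of the library. A fold against a group with no read uses a floor of 3 reads over the group, and one with 1 to 3 reads has an exact binomial (Clopper-Pearson) 95% interval. Both cover counting error only. The test was checked on simulated counts. Alternatives were DESeq2 1.42.0, its size factors, no filter, fewer libraries, a replicate block, a test against 2-fold, and leaving out each library.

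The members and the 41 lists were chosen with earlier results of these data known. Genes named are the 15 highest and 15 lowest with mean log2 CPM of at least 3 and groups apart, a fixed set, and up to 4 per list and direction by p. Others were chosen after their values were seen. Residuals of libraries with the same number correlated at 0.01, -0.13 and 0.03, and those with different numbers at -0.12 to 0.11. Tissues of 1 mouse need not share residuals, so whether the numbers pair colon with ileum is not known. Results of 4 genes are not reported here.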

Additional observations from a re-analysis of the deposited data

How the results depend on the processing

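Counts of called genes moved by less than 1.5 times under every alternative. The 1640 higher and 1980 lower genes became 1744 and 2097 with DESeq2, 1543 and 1808 without the filter, 1390 and 1561 with only the 12 untreated 10-week libraries, 1882 and 2212 with only the 6 libraries, and 1184 to 1426 and 1499 to 1831 without any 1 library. A replicate block over the 6 libraries gave 1749 higher and 2019 lower genes, and 0 for the difference between COL and SPF over 12 libraries. Whether the replicate numbers pair the samples is not known. Of the 3620 calls, 73.2 to 83.2% were kept without 1 library and 99.6% with DESeq2. The difference between COL and SPF called 0 genes in most settings and 0 to 8 when 1 library was left out, with 8 without SPF colon replicate 3. Of 269 named genes tested, 221 kept their direction and call in every setting. When 1 library was left out, 5 genes that were not called changed sign: Slc5a8 lay between -0.04 and 0.14, Ccr2 between -0.82 and 0.40, Slc15a1 between -0.04 and 0.10, Retnlb between -0.21 and 0.48, and Zg16 between -0.01 and 0.29. The cause was not tested. Genes with under 4 reads in a tissue are limited by depth.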

Other observations

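A few further members of the lists also divided the tissues. Cyp2c55, a cytochrome P450 of the foreign compound list that was chosen after its values were seen, had 374, 834 and 335 CPM in COL colon, against 7.7, 5.43 and 68.4 CPM in COL ileum (log2 fold change 4.24 ± 0.82, adjusted p = 0.00049 by edgeR). In COL colon after DSS it averaged 27.1 ± 16.6 CPM, beside 514 ± 278 CPM in untreated COL colon (SD, n = 3 each), without a test. Ttr, the thyroid hormone and retinol carrier transthyretin, had 45.4, 51 and 42.6 CPM in COL colon, against 2.33, 2.88 and 2.81 CPM in COL ileum (4.10 ± 0.53, adjusted p = 5.7e-07 by edgeR). Albumin (Alb), the most abundant liver transcript, had 1.05, 1.03 and 1.93 CPM in COL colon and 0.179, 0 and 0.702 CPM in COL ileum.

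Over all genes tested, 26.2% were called in either direction. Heat shock and immediate early genes had 4 higher and 5 lower of 28 with a median of -0.03, and Hspa1a had 179, 49.3 and 91.6 CPM in COL colon and 240, 253 and 337 CPM in COL ileum (-1.37 ± 0.59, adjusted p = 0.096 by edgeR). Circadian genes had 3 higher and 2 lower of 18, steroid and eicosanoid genes 3 higher and 3 lower of 20, and gut homing genes 2 higher and 9 lower of 18. Tuft and mast cell genes had 5 higher and 2 lower of 16, monocyte and neutrophil genes 3 higher and 2 lower of 16, and vessel genes 2 higher and 1 lower of 17. Mesothelial genes had 1 lower of 5, squamous genes 1 higher of 5, blood genes 2 higher of 2, pancreas and liver genes 2 higher and 1 lower of 5, and sex-linked genes 0 called of 4. Leaving out 1 library moved some of these small counts, as in the heat shock list, where 1 was higher and 3 lower without COL colon replicate 2 and 2 were higher without COL ileum replicate 3. In the steroid list, 5 were lower without COL colon replicate 2.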
